A study of Sparus aurata with 6 samples.

Results

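The 150 brightest transcripts of gilthead sea bream (Sparus aurata) skin were described on 6 oligonucleotide arrays, 3 from fish fed the SDPP diet and 3 from fish fed the control diet. A transcript here is a clone or contig name of the array, measured by up to 4 kept probes. The members were chosen by their measured mean level over all 6 arrays, and are the 150 highest of the 4434 names with a probe well above background on every array, which is 3.38% of those names and 0.99% of the 15156 names on the array. Their high level is therefore the way they were chosen and not a result, and no test was made of it. The difference between the diets did not enter the choice, because both diets weigh the same in the mean.

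Juvenile fish were fed for 95 days. SDPP is spray-dried porcine plasma, a feed protein prepared from pig blood, and in the SDPP diet it made up 3% of the feed in place of fishmeal, with 0% in the control diet and small changes to other ingredients. The labels give body weights of 88.2 ± 1.6 g for the SDPP fish and 82.7 ± 3.2 g for the control fish. Each diet had 3 pools of skin RNA from the anterior dorsal body, each pool combined 4 fish with 1 fish from every one of the 4 tanks of its diet, and the spread between pools is thus neither that between fish nor that between tanks. Tank and diet cannot be told apart, and neither can fewer cells of a type and less RNA per cell, since whole skin was extracted.

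Fish skin is a living epithelium of keratinocytes and mucus-secreting goblet cells over a collagen-rich dermis that holds scales, pigment cells and vessels. In animal tissues the most abundant messenger RNAs usually belong to a small set of genes, among them those of ribosomal proteins, translation factors, mitochondrial subunits and the main structural proteins of the tissue, which in skin are keratins and collagens. Which of the bright transcripts belong to these groups could not be stated, because the scanner tables give clone and contig names only and 0 of the 150 matched the 32006 genes of the RefSeq table for assembly fSpaAur1.1. The labelled tissue could not be checked against skin markers for the same reason, and no probe or transcript sequence was used here. An expressed sequence tag clone (the cDN and SCT names) is 1 sequenced complementary DNA, and a contig is an assembly of such reads that overlap. Different names can represent the same gene, and this was not tested.

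Levels are log2 intensities relative to the 75th percentile of the array's probes, so that a level of 0 is that percentile and each step of 1 doubles the brightness. The members ran from 7.86 for cDN11P0001N22.F.ab1 to 5.11 for cDN06P0006D22.F.ab1, a range of 2.75 or 6.71-fold, with a median of 6.38, against a median of 0.86 and a lowest level of -1.59 over all 4434 names. The levels were not spread evenly. From 6.5 to under 7.0 there were 43 members, with 26 members in the interval of equal width below it and 21 in the one above it, and 4 members lay above 7.5. Brightness depends on the probe as well as on the RNA, so the order is one of brightness on this array and not of molecules in the tissue.

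The brightest member, cDN11P0001N22.F.ab1, had levels of 7.69, 7.88 and 7.57 in SDPP pools 1 to 3 and 8.08, 8.31 and 7.62 in control pools 1 to 3. It was the highest name on all 6 arrays and led the next by 0.29. Its unscaled intensity was 455700, 431400 and 446000 in the SDPP pools and 483600, 451200 and 487600 in the control pools. The diets overlapped in both measures. After it came Contig1492 at 7.57, Seabream_2006-01-03-CL1722Contig1 at 7.55, Contig1863 at 7.50, Contig1496 at 7.46, Contig1008 at 7.42, Contig1321 at 7.37, Contig1950 at 7.37, Contig1861 at 7.27 and Contig450 at 7.22. Neighbours among these differed by as little as 0.0083, far below the spread between pools of the same diet, and the order of neighbours this close cannot be read. Names further apart could keep their order, as Contig1492 lay above Contig450 on all 6 arrays. Of the 10 brightest members, 7 were among the 10 brightest on every array, and the worst rank of any of the 10 on any array was 23. The same arrays chose them, so this is a description. All 10 overlapped between the diets, and none passed the unadjusted threshold of 0.05 in limma, the test used throughout on the scaled log2 levels. Their differences, SDPP minus control, lay between -0.30 for Contig1861 and -0.07 for Contig450.

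**Figure D1:**
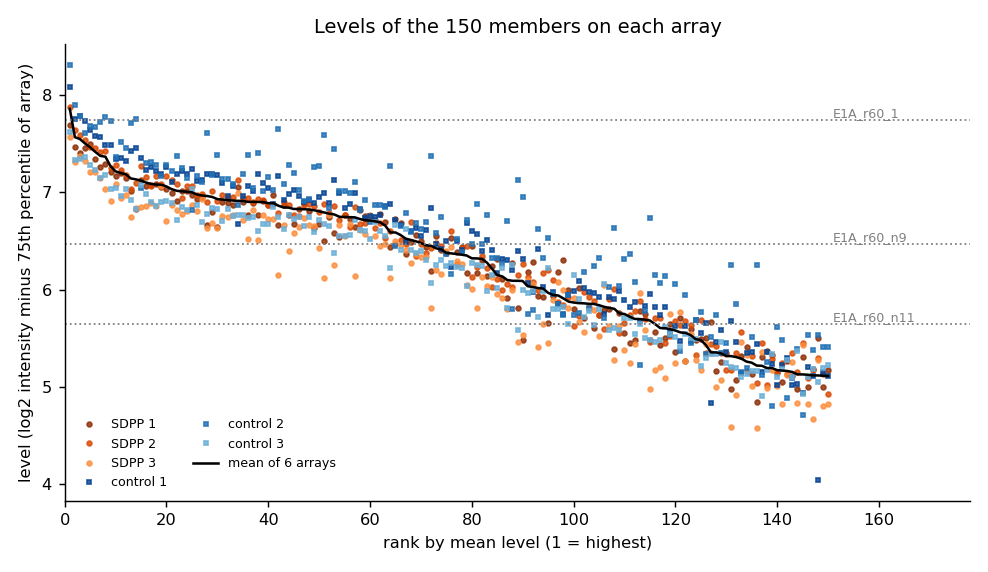
Level (log2 intensity minus the array's 75th percentile) of each of the 150 members on each of the 6 arrays (circles SDPP, squares control) against its rank, with the mean as a black line and 3 spike-in RNAs (E1A_r60_1, E1A_r60_n9 and E1A_r60_n11) as dotted lines. The mean falls to 5.11 at rank 150, control 2 is the highest array for 100 members and SDPP 3 the lowest for 84, and the isolated low point at rank 148 is Contig3645 on control 1.

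At the lower edge the ranking had no gap. Just inside stood Contig3645 and Contig2539 at 5.12 and cDN06P0006D22.F.ab1 at 5.11, and just outside stood cDN06P0006D10.F.ab1 and cDN11P0005E15.F.ab1 at 5.11 and Seabream_2006-01-03-CL252Contig1 at 5.09. Taken array by array, between 137 (SDPP 3) and 147 (control 3) of the members were among that array's own 150 brightest, 125 were so on all 6 arrays, and 180 names were so on at least 1. Ranking by the SDPP pools alone kept 142 members and ranking by the control pools alone kept 144. Most of the set was thus shared by the rankings of both diets, though the arrays of both diets also chose the set.

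The ranking did not use the kind of name. Names of the form Contig plus a number made up 61.3% of the members (92 names) but 32.1% of all names kept and 20.8% of the names on the array. Clones of the cDN series made up 17.3% (26 names), against 37.2% of the names kept and 57.7% of those on the array. A further 26 were contigs of the Seabream_2006-01-03 set, 5 were SCT clones and 1 was a contig of the Mackenzie set. Of the 429 probes with a member's name 413 passed the detection filter, every probe passed in 136 members (77.0% of all kept names), and 115 members had 3 probes kept. Detection rises with brightness and was part of the choice, so this is a description.

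The scanner read each slide at a high and a low gain and the software took bright spots from the low-gain scan. It did so for every kept spot of 148 of the 150 members, the exceptions being Contig3526 and Contig3645, and for 2.85% of the other kept names (122 names). No member spot was saturated. Repeated spots of the same probe differed by a median SD of 0.054 among the 245 member probes with repeats, and by 0.074 among all kept probes. The spread between pools was not smaller in the same way. The SD within diets had a median of 0.182 for the members, 0.173 for the 150 names next in rank and 0.184 for all names, and it ranged from 0.040 to 0.596 among the members.

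Contig131 varied most between pools, with levels of 5.82, 6.15 and 5.47 in SDPP pools 1 to 3 and 6.39, 7.13 and 5.59 in control pools 1 to 3, an SD within diets of 0.596. Seabream_2006-01-03-CL4309Contig1 followed the same order of pools, with 6.19, 6.42 and 5.81 on SDPP and 6.84, 7.38 and 6.07 on control (SD 0.514). In both, control 2 was the highest pool and the diets overlapped. Contig24 varied least, with 5.59, 5.64 and 5.54 on SDPP and 5.47, 5.46 and 5.51 on control (SD 0.040). Its SDPP pools all lay above its control pools, but the difference of 0.11 (SE 0.11) did not pass in limma (unadjusted p = 0.319). Contig2327 (SD 0.060) and Contig1248 (SD 0.070) were the next most even members, and both appear among the differences between the diets.

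Contig3645, also among the 3 members with the largest spread (SD 0.546), had 1 probe that read low on 1 array. Its levels were 5.50, 5.30 and 5.28 on SDPP and 4.04, 5.54 and 5.05 on control. Probe CUST_4086_PI419285025 read 5.03, 4.77 and 4.94 on SDPP and 0.70, 5.01 and 4.51 on control, so that it differed between the diets by 1.5, while the other probes of this contig differed by -0.10 and 0.03. The reason for the single low value on control 1 was not tested. Contig561 (-0.24 to 0.12 over its probes) and Seabream_2006-01-03-CL1066Contig1 (-0.17 to 0.14) were the other names with the strongest disagreement between probes, and the mean of their probes differed by -0.03 and by less than 0.01. Among the 136 members with 2 or more probes, all probes pointed to the same diet in 119 (87.5%), against 79.4% of 1961 such names in all. Within a member the probes' differences had a median spread of 0.077, against 0.108 over all such names.

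The comparison of the diets asks which of these bright transcripts changed in skin when plasma protein replaced part of the fishmeal. In limma 16 members passed the unadjusted threshold of 0.05, or 10.7%, against 19.3% of all 4434 names and 26% of the 150 names next in rank. Of these 7 were higher on SDPP (8.28% of all names were) and 9 were lower (11% of all names were). The difference between these shares was not tested, and it turned in the other direction without control 3 (28% of the members and 24.5% of all names). After Benjamini-Hochberg adjustment over all names 0 members and 0% of all names passed, with a smallest adjusted p of 0.154 among the members. The methods' t-test, which is unpaired, gave 9 members at the unadjusted threshold (6%, against 15.5% of all names), 7 higher and 2 lower, and 0 after adjustment. The pools of the diets did not overlap for 26 members (17.3%, against 25.7% of all names), 14 of them higher and 12 lower. Differences ran from -0.80 to 0.54, with a median standard error of 0.149, and only 7 members differed by more than 1.5-fold, all of them lower on SDPP, while 7.85% of all names did so in either direction.

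**Figure D2:**
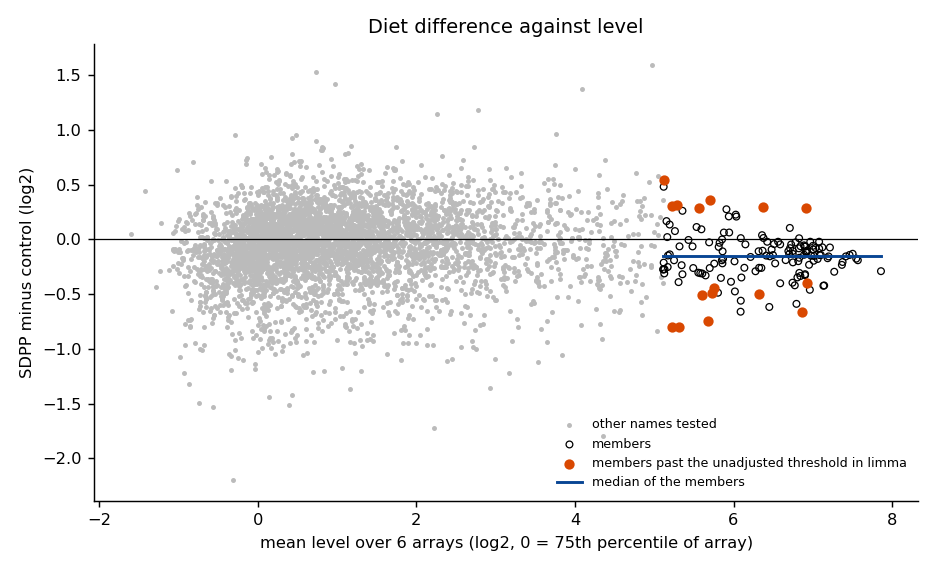
Difference between the diets (SDPP minus control, log2) against the mean level for the 150 members (circles, filled for the 16 past the unadjusted threshold in limma) and all other names tested (grey dots). The horizontal blue line is the members' median of -0.15, and 124 of the 150 circles lie below 0.

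Rises and falls here are those past the unadjusted threshold in limma, none of which passed after adjustment. Contig3526 showed the largest rise. Its levels were 5.31, 5.45 and 5.43 in the SDPP pools and 4.94, 4.71 and 4.92 in the control pools, a difference of 0.54 (SE 0.12, unadjusted p = 0.0024, adjusted p = 0.154 in limma). All SDPP pools lay above all control pools, and its 3 probes differed by 0.53 to 0.55. It stayed past the unadjusted threshold in all 20 alternative analyses that were run for it, with differences of 0.47 to 0.74, and was the only one of the 10 members named here for a difference to do so. These analyses re-use the arrays by which it was picked, so they are no separate support. It is also a member near the lower edge, at rank 145.

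The other rises were smaller. Seabream_2006-01-03-CL4918Contig1 had 5.78, 5.88 and 5.97 in the SDPP pools and 5.68, 5.23 and 5.64 in the control pools, a difference of 0.36 (adjusted p = 0.253 in limma) in which control 2 stood lowest. Contig2099 had 5.32, 5.56 and 5.46 on SDPP and 5.15, 5.15 and 5.10 on control (0.31). Seabream_2006-01-03-CL3434Contig1 had 5.30, 5.46 and 5.36 on SDPP and 5.16, 5.13 and 4.91 on control (0.31). In each of these the pools of the diets did not overlap. Contig1248, one of the most even members, had 6.53, 6.60 and 6.44 on SDPP and 6.24, 6.17 and 6.27 on control (0.30), again without overlap. The remaining 2 rises past the threshold were cDN14P0002I19.F.ab1 (0.29), at rank 34 the brightest of the 7, and Contig2327 (0.28). Of the 7 rises, all were free of overlap and 6 passed the methods' t-test as well. Both use the values by which limma picked these members, so neither is separate support.

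The falls were larger and less even between pools. cDN13P0001P04.F.ab1 had 4.85, 5.04 and 4.57 in the SDPP pools and 5.44, 6.26 and 5.16 in the control pools, a difference of -0.80 (SE 0.28, adjusted p = 0.202 in limma). cDN06P0004F12.F.ab1 had 4.98, 5.18 and 4.59 on SDPP and 5.68, 6.26 and 5.21 on control, also -0.80 (SE 0.27, adjusted p = 0.200). Both clones followed the same order of pools, and whether they stem from the same gene was not tested. cDN10P0003A19.F.ab1 had 5.48, 5.46 and 4.98 on SDPP and 5.95, 6.74 and 5.49 on control (-0.75). Here the lowest control pool lay less than 0.01 above the highest SDPP pool. cDN02P0002F07.F.ab1, at rank 42 a brighter clone, had 6.67, 6.78 and 6.15 on SDPP and 7.17, 7.66 and 6.75 on control (-0.66), and its diets overlapped. SCT972_B08_JP7_3B8_031.ab1, which rests on 1 probe, had 5.50, 5.45 and 5.09 on SDPP and 5.82, 6.14 and 5.61 on control (-0.51). The other 4 falls past the threshold were Seabream_2006-01-03-CL2172Contig1 (-0.49), Contig1270 (-0.49), Seabream_2006-01-03-CL2442Contig1 (-0.44) and cDN13P0001J23.F.ab1 (-0.40).

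In all 9 falls control 2 was the highest pool and SDPP 3 the lowest. The pools did not overlap in 6 of the 9, and 0 of the 9 passed the methods' t-test. Overlap was read from the values by which limma picked these members, so it is no separate support. Among all members 12 (8%) were lower without overlap, against 12.2% of all names. The 2 members that were lower in the methods' t-test, cDN03P0003P10.F.ab1 (-0.26) and Contig1648 (-0.26), did not pass in limma. Without control 2, 7 members passed the unadjusted threshold in limma, 5 higher and 2 lower, against 13.3% of all names, and 6 of the 7 were among the 16. The smallest adjusted p was then 0.261. The member outside the 16 was Contig3645 (0.81, higher), the contig described above with 1 probe that read low on control 1. Its call cannot be read as a rise of the transcript, because its other probes hardly differed between the diets. Without SDPP 3 the count was 2, both higher, against 11.6% of all names. Without control 3 it was 42, of which 39 were lower, against 24.5% of all names. It was 7 without SDPP 1 (15% of all names). It was 8 without control 1, where the share of all names is not given here, so that count cannot be set against it. For the 14 of the 16 members with 2 or more probes, all probes of each pointed to the same diet. These members were picked by the mean of the same probes, so this is no separate support.

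**Figure D3:**
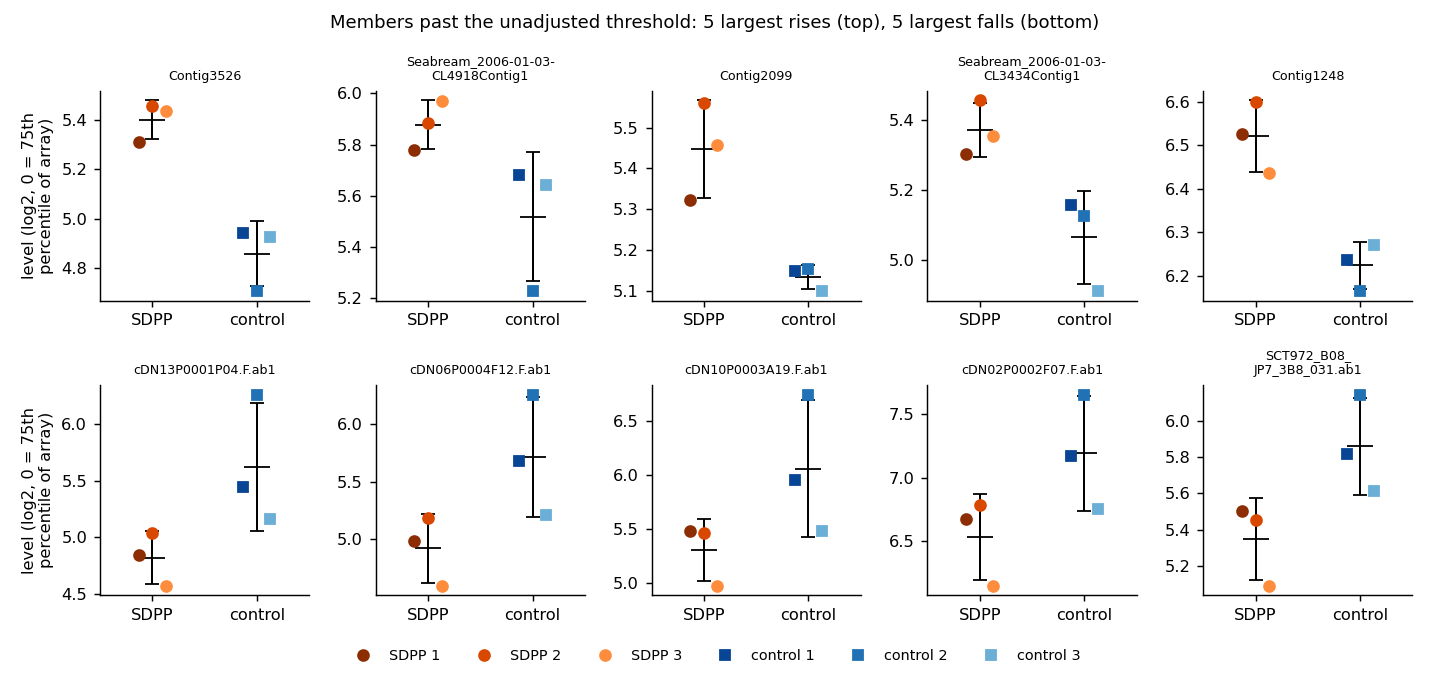
Level (log2, 0 at the array's 75th percentile) of the 5 members with the largest rise (top) and the 5 with the largest fall (bottom) past the unadjusted threshold, with 1 point per pool and, behind the points, the mean and SD of each diet (n = 3). SDPP and control points do not overlap in the top row, while in the bottom row control 2 is the highest and SDPP 3 the lowest point of every panel; the axes do not start at 0.

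Beyond these 16, the members as a whole lay slightly lower on SDPP. The mean was lower on SDPP in 124 of the 150 (82.7%), against 55% of all names and 58% of the 150 next in rank. The median difference was -0.15 for the members, -0.07 for the next 150 and -0.03 for all names. Their absolute differences were no larger than those of other names, with a median of 0.19 in both. By brightness, 48 of the first 50 members were lower on SDPP, then 39 of the next 50 and 37 of the last 50, with medians of -0.15, -0.13 and -0.20. The last 50 members also held 11 of the 16 members past the threshold, 5 higher and 6 lower. The first 50 held 1 higher and 2 lower, and the next 50 held 1 higher and 1 lower. Of all names 19.3% passed the threshold, and of the 150 next in rank 26%. The differences between these shares were not tested. Within the 1 slide that held an array of each diet (SDPP 3 and control 1), the median was -0.33 for the members and -0.06 for all names, and 132 members were lower on SDPP. SDPP 3 had the lowest median member level of all arrays (6.14), and control 1 (6.50) lay below control 2 alone. This 1 pair is therefore no separate measure of the shift.

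This common shift was uneven between the arrays of a diet. The median level of the members was 6.39, 6.40 and 6.14 in SDPP pools 1 to 3 and 6.50, 6.69 and 6.25 in control pools 1 to 3, so that SDPP 3 and control 3 were the low arrays and control 2 the high one. The mean difference between the diets of -0.17 had an exact two-sided permutation p of 0.4, where 3 against 3 pools allow no value under 0.1. Control 2 was the highest array for 100 members (66.7%, against 35.7% of all names), SDPP 3 was the lowest for 84 (25.9% of all names) and control 3 for 37. For 73 members both held at once, control 2 highest and SDPP 3 lowest, against 17.6% of all names. Without control 2 the members' median was -0.09, that of all names -0.01, and 116 members were lower on SDPP. Without SDPP 3 the members' median was -0.09, that of all names -0.03, and 112 members were lower. The source of the shift was not tested.

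**Figure D4:**
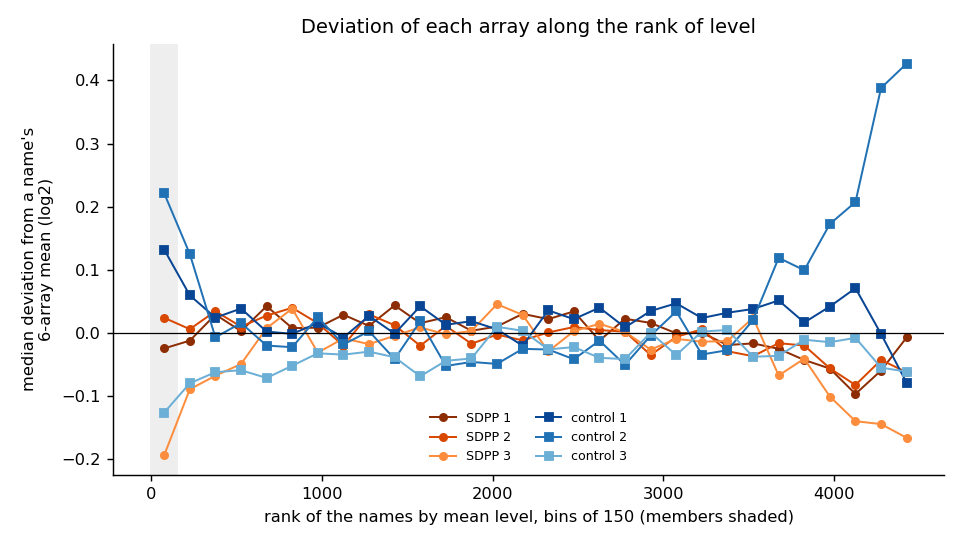
Median deviation (log2) of each array from the 6-array mean of each name, in bins of 150 names along the rank of level (84 names in the last bin), with the members shaded. In the members control 2 lies at 0.22 and control 1 at 0.13, SDPP 3 at -0.19 and control 3 at -0.13; the arrays lie close together in the middle of the ranking, and control 2 rises again among the dimmest names.

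The pools separated the members along a single axis. The first principal component held 79.6% of the variance of the members over the 6 arrays (the next held 7.41%), against 52.2% for all names. On it the SDPP pools stood at -1.42, -0.02 and -3.44 and the control pools at 1.73, 4.55 and -1.39. Control 3 fell among the SDPP pools. A total of 126 members pointed towards control 2 and 24 the other way, and without control 2 the first component still held 69.2%. Contig131, cDN10P0003A19.F.ab1, cDN06P0004F12.F.ab1, Seabream_2006-01-03-CL4309Contig1 and cDN13P0001P04.F.ab1 weighed most, so the members that varied most between pools and those with the largest falls were partly the same.

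RNAs added in known amounts during labelling had the same highest and the same lowest array as the members. The mean level of 6 such spike-ins, which do not come from fish, was 4.14, 4.33 and 3.89 in the SDPP pools and 4.29, 4.53 and 4.05 in the control pools. Among the arrays between these, only SDPP 2 and control 1 stood in another order than for the members' median. The members' median lay above the spike-in mean by 2.26, 2.07 and 2.25 in the SDPP pools and by 2.21, 2.16 and 2.20 in the control pools. The spike-in mean differed between the diets by -0.17, with single spike-ins between -0.10 and -0.21. The 75th percentile to which each array was scaled was 2203, 1829 and 2345 intensity units on SDPP and 1786, 1419 and 2475 on control, lowest on control 2. On the log2 scale it ranged over 0.80 between arrays, whereas the median unscaled intensity of the members ranged over 0.36 and their median scaled level over 0.55. The share of spots well above background was 36.7%, 52.7% and 40.9% on SDPP and 44.9%, 28.2% and 50.1% on control, also lowest on control 2. The part of these quantities in the members' shift was not tested.

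Another scaling adds a constant to every name of an array, so it moves the members and all other names alike. With the arrays scaled to the spike-ins, an alternative chosen after the data were seen, the median difference was 0.02 for the members and 0.14 for all names, and 68 members were lower on SDPP. Without any scaling, also chosen after the data were seen, it was 0.05 and 0.17, and 59 were lower. Median normalization kept the members' median below 0, at -0.06, with 0.06 for all names and 97 members lower. Quantile normalization is no such constant but gives every array the same distribution, which leaves little room for a shift of the brightest names. It left a median of -0.005 for the members and -0.021 for all names, and 76 members lower. The split of the calls moved with the scaling: median normalization gave 9 higher and 2 lower, quantile normalization 7 and 7, and scaling to the spike-ins 4 and 4. These were 7.33%, 9.33% and 5.33% of the members, against 19.1%, 19.8% and 12.4% of all names.

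**Figure D5:**
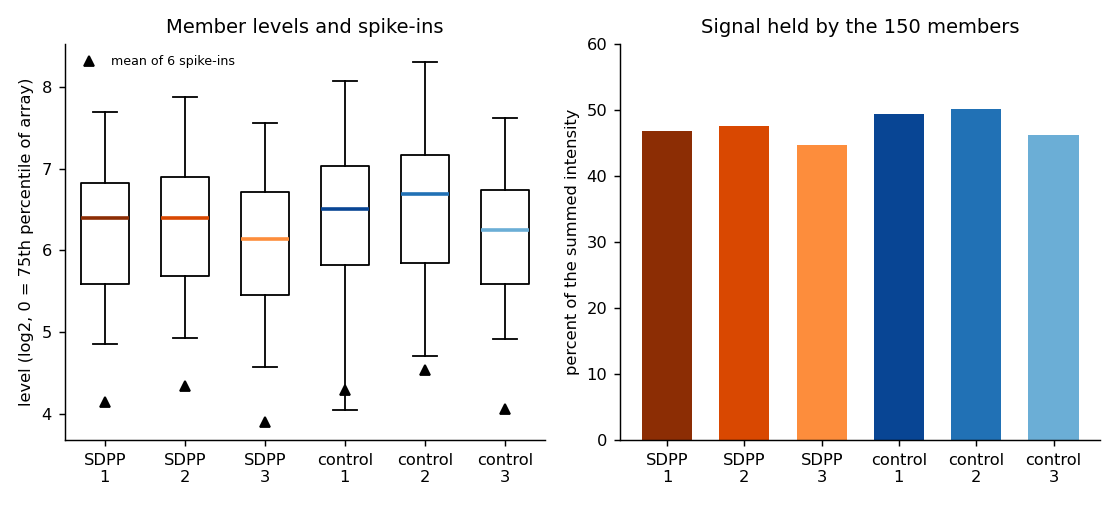
Left, level (log2, 0 at the array's 75th percentile) of the 150 members on each array (box, quartiles; coloured line, median; whiskers, lowest and highest member) and mean of 6 spike-ins (triangles), both highest on control 2 and lowest on SDPP 3. Right, percent of the summed intensity of all kept names held by the members, between 44.7% on SDPP 3 and 50.2% on control 2.

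By the way they were chosen, the members hold much of the signal, and how that share varies between pools is what can be compared. They held 46.9%, 47.7% and 44.7% of the summed intensity of the 4434 names in SDPP pools 1 to 3 and 49.4%, 50.2% and 46.2% in control pools 1 to 3. The mean was 46.4 ± 1.51% on SDPP and 48.6 ± 2.15% on control (SD, n = 3 each), a difference of -2.16 percentage points with overlapping pools and an exact two-sided permutation p of 0.3. It was -1.36 without control 2, -1.32 without SDPP 3 and -3.39 without control 3. With quantile normalization it was -0.066, but giving every array the same distribution leaves little room for a difference in this share. The 10 brightest members alone held 6.08%, 6.44% and 5.82% on SDPP and 6.81%, 6.80% and 5.87% on control. This share needs no scaling between arrays, but it sums linear brightness over different probes and is no share of RNA molecules.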

How the data were processed

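Skin RNA of 3 SDPP pools and 3 control pools was hybridized to 1 single-colour Cy3 array each (200 ng of RNA labelled per array). The authors deposited scanner tables with background-corrected intensities on a linear scale, made by Feature Extraction (version 10.7.3.1 per the file headers, while the methods name another) and not normalized between arrays. The authors also deposited a log2 table, which equals the log2 background-subtracted signal within 5e-09 and is unscaled.

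Control spots and outlier spots were left out. The log2 processed intensity minus the array's 75th percentile was averaged per probe. Probes well above background in at least 50% of their spots on all 6 arrays were kept (7893 of 28793) and averaged per name. The diet difference was tested in R 4.3.3 using limma 3.58.1 (lmFit, then eBayes). P-values were adjusted over 4434 names after Benjamini-Hochberg. The test was checked on simulated data with independent noise for each name. The members' pools varied along a common axis, which that check does not cover. The p-values of limma set the difference between the diets against the spread between pools. Figures were drawn with matplotlib 3.10.9. The precision is limited by the number of arrays.

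Members, lists and tests were chosen with earlier results of these data known. The members named are the 10 brightest, 3 on each side of the threshold on rank, the 5 largest rises and falls past the unadjusted threshold, the 3 most and least variable and the 3 with the strongest disagreement between probes. Other members past the threshold in limma or in the methods' t-test were named in addition, after their values were seen. Lists of gene families and cell type markers could not be applied without gene names. The arrays lay on 5 slides; all SDPP arrays were at one position of their slides and all control arrays at another, so position and diet cannot be told apart. Alternatives were other tests, blocks, background corrections, scalings and filters, single probes, the log2 table and leaving out each pool; scaling to spike-ins, no scaling and the 150 next names were added after the data were seen.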

Additional observations from a re-analysis of the deposited data

How the results depend on the processing

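With 3 pools a diet, the counts of calls depended on the processing. In brackets here is the share of all names that passed. Against 16 members past the unadjusted threshold (19.3%), the methods' t-test gave 9 (15.5%) and the log2 table of the authors 9 (13.2%). A filter on 3 arrays gave 8 (15%), no filter 2 (4.39%), scaling to spike-ins 8 (12.4%) and no scaling 4 (8.53%). Leaving out 1 pool gave 2 without SDPP 3 (11.6%) to 42 without control 3 (24.5%). The count was 7 without SDPP 1 (15%), 19 without SDPP 2 (16.2%) and 7 without control 2 (13.3%). Without control 1 it was 8, where the share of all names is not given here. The labels' pool numbers differ from the tags in some scanner tables' names. By these numbers, equal pools had correlations of deviations of -0.05, 0.26 and 0.21, and 4 of 6 pools correlated best with their own number. These few values cannot decide whether equal numbers pair the samples. The methods describe no pairing: fish were taken at random from the tanks of each diet, and the test was unpaired. Arrays with equal numbers also lay on different slides. A block by number therefore has no basis in the described design. With the number as a replicate block 41 members passed (27.3%, against 23.3% of all names), 7 higher and 34 lower. The smallest adjusted p of a member was then 0.0729 in limma. The other 8 alternatives gave 11 to 20 members. The slide as a block gave 20 (21.6%), another background correction 14 (15.4%), quantile normalization 14 (19.8%) and median normalization 11 (19.1%). Keeping outlier spots gave 15 (19.5%), the brightest probe of each name 16 (18.8%) and limma with trend and robust settings 16 (19.6%). For single probes the share is not given here. After adjustment 0 passed in all 21 alternatives. The median difference was above 0 with spike-in scaling (0.0205) and without scaling (0.048), and -0.24 to -0.09 with 1 pool left out. Quantile normalization gave a difference in signal share of -0.066 percentage points and an SD between pools of 0.115. It gives every array the same distribution, which leaves little room for a difference in this share or a common shift between arrays. With 1 pool left out the difference in share ran from -3.39 to -1.32 and the SD from 0.145 to 0.204. Between 141 and 149 members kept their place under all 15 alternatives run for it, and the count of 119 members with agreeing probes did not change with the looser filter. Of the named differences Contig3526 alone passed in every alternative, cDN13P0001P04.F.ab1 and cDN06P0004F12.F.ab1 in 17 of 20 and the rest in 8 to 13 of 20, with no change of direction. All alternatives re-use the arrays by which the members and the named differences were picked, so none is separate support. The slide block used a correlation of 0.207, derived from the 2 arrays of the shared slide, since the usual estimate gave no value. The cause of these changes was not tested.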
